A study of Mus musculus with 20 samples.

Results

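The kinase gene Mos and the genes of M-phase promoting factor and its activating and inhibiting enzymes were followed through mouse preimplantation development on MOE430A expression arrays. The members were all probe sets with 1 symbol that the platform annotation pairs with Mos, Ccnb1, Ccnb2, Cdk1, Wee1, Cdc25a, Cdc25b or Cdc25c. This gave 9 of the 22690 probe sets on the array, for 7 of the 8 genes, out of 12393 genes that have a probe set with 1 symbol. Wee1 and Cdc25a had 2 probe sets each and the other 5 genes had 1 each. The annotation used here pairs no probe set with 1 symbol with Ccnb1, the gene of cyclin B1, which was not analysed here. Probe sets with several symbols were not searched. The 5 groups were oocytes, 1-cell embryos, 2-cell embryos, 8-cell embryos and blastocysts of the mouse, with 4 arrays each and 20 in all. All RNA was total RNA taken through 2 rounds of in vitro transcription, a linear amplification for small inputs. The labels name no strain, age, genotype, treatment or collection day, and do not say how many oocytes or embryos stood behind an array. Whether the oocytes were immature or mature, and how the 1-cell embryos were timed, is not stated either. Sample titles name a stage and no time within it, so cell-cycle phase at collection cannot be told apart from stage. The labels also do not say whether the numbered replicates came from separate collections. A p-value here therefore measures the spread among these arrays alone, and that spread may be technical.

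M-phase promoting factor is a complex of the kinase Cdk1 with a B-type cyclin, and its activity drives cells into meiotic and mitotic division. The kinase Wee1 holds the complex inactive by phosphorylating Cdk1, and the Cdc25 phosphatases remove that phosphate and activate it. In the mouse egg, Mos starts a mitogen-activated protein kinase (MAPK) cascade that keeps the egg arrested at the metaphase of the second meiotic division until fertilization, when cyclin B is destroyed and the arrest ends. Of the 3 Cdc25 genes, Cdc25b is needed for meiotic resumption in the mouse oocyte.

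Promoter sequences from RefSeq (build GRCm38.p6) are shown for 4 of the 7 measured genes, so that Cdk1 and Ccnb2, whose products form 1 complex but whose array levels differed in course, can be set side by side. Each run holds the 100 bases before the annotated start, on the strand of the gene, 5′ to 3′. Capitals mark CCAAT or its reverse complement ATTGG, the CCAAT box that the factor NF-Y is known to bind, and TTTGAA or its reverse complement TTCAAA, a core of the cell-cycle genes homology region found in promoters of many genes of late cell cycle.
Cdk1, chr10:69352913-69353012, minus strand: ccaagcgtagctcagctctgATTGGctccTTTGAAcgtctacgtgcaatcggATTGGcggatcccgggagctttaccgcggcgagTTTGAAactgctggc
Ccnb2, chr9:70421555-70421654, minus strand: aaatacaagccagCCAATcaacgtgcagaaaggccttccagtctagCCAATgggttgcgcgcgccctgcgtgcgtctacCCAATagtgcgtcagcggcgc
Cdc25a, chr9:109875479-109875578, plus strand: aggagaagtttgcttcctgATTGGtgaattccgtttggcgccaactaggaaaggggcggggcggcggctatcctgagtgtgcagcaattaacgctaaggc
Cdc25b, chr2:131186848-131186947, plus strand: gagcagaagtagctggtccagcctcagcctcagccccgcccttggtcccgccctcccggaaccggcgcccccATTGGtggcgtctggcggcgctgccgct
The search covered both strands of the full window of 300 bases, 250 before the start and 50 after it, and no match of one motif overlapped a match of the other. The CCAAT box occurred 3 times in the window of Cdk1, 3 times in that of Ccnb2, 2 times in that of Cdc25a and 1 time in that of Cdc25b. The TTTGAA motif occurred 2 times in the window of Cdk1, with first bases 71 and 15 bases before the start. It occurred 2 times in that of Ccnb2, 167 bases before the start and 5 after it, both outside the printed run, and had no match in these letters for Cdc25a and Cdc25b. Of 32851 promoters of the same length, 37.4% held a CCAAT box, 3.37% held at least 3, 17.9% held the TTTGAA motif, 2.31% held it at least 2 times, and 6.95% held both motifs. These are matches of letters, not shown binding sites.

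Values are linear probe-set intensities, in the array's arbitrary units, which the authors scaled so that all arrays have nearly the same trimmed mean (150.05 to 150.08). Levels are therefore relative to the whole array signal of a stage, and fewer cells carrying a transcript cannot be told apart from less of it per cell. Changes were tested with limma on log2(intensity + 12.15), later stage minus earlier stage, over the 17208 probe sets above an intensity of 32.9 on at least 4 arrays. A change is called where the Benjamini-Hochberg adjusted p is under 0.05. All 9 member probe sets entered the test, although Mos was above 32.9 on 10 of 20 arrays, Cdc25c on 16 and the Wee1 probe set 1416774_at on 6. Within a stage, pairs of arrays had correlations of 0.931 to 0.971 over all probe sets.

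The stage labels were set against marker genes. The summed intensity of 6 oocyte genes (zona pellucida genes, Gdf9, Oosp1 and H1f8) was 27637 to 31841 in oocytes, 23060 to 29974 at the 1-cell stage, 8664 to 11086 at the 2-cell stage, 495 to 614 at the 8-cell stage and 180 to 244 in blastocysts. Single genes moved apart between oocytes and the 1-cell stage. Means were lower at the 1-cell stage for Zp1 (2032 to 331), Zp2 (5394 to 582) and Zp3 (5489 to 1176). They were higher for Gdf9 (7590 to 9208), Oosp1 (6979 to 12218) and H1f8 (2076 to 3638). The 3 genes of the 2-cell embryo summed to 3657 to 6169 at the 2-cell stage and to 57.3 to 191 elsewhere, and the 6 blastocyst genes to 19851 to 24636 in blastocysts and 138 to 2468 elsewhere. Markers of cumulus cells stayed at 251 to 644 on all arrays (4 of 10 tested), and markers of sperm at 84.2 to 262. Markers of oviduct and blood ran to 288 to 833 at the 2-cell stage and 121 to 3203 at the 8-cell stage, against 100 to 186 at the other stages. Of these, the oviduct gene Ovgp1 averaged 495 ± 242 at the 2-cell stage and 865 ± 1495 at the 8-cell stage, where it ranged from 46.5 to 3105.4, whereas means of Hba-a1, Ptprc and Foxj1 were 9.7 to 54.4 at all stages. Signals of RNA quality moved with stage. The middle probe set of 18S ribosomal RNA averaged 12665 at the 1-cell stage and 196 to 851 at the other stages. The 3′ to 5′ ratio of beta-actin was 1.99 in blastocysts and 3.67 to 4.74 elsewhere, and that of Gapdh was 1.28 at the 8-cell stage and 4.7 to 5.81 elsewhere. The part of these signals in the results below was not tested. Scaling to the added hybridization controls in place of the trimmed mean moved the median change of all probe sets by -1 at oocyte to 1-cell, 0.21 at 1-cell to 2-cell, -0.56 at 2-cell to 8-cell, 1.08 at 8-cell to blastocyst and -0.26 at oocyte to blastocyst, so each change below is a change relative to the other probe sets of the array. Centring on the array median moved it by -0.11 at 1-cell to 2-cell and 0.22 at 8-cell to blastocyst, and quantile normalization by 0.12 at 8-cell to blastocyst.

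Mos transcript was abundant in oocytes, lower after fertilization and below the filter level of 32.9 on all 8-cell and blastocyst arrays. On the 4 arrays of each stage its probe set read 2837.6, 3013, 2587.6 and 3099.1 in oocytes, then 1295.7, 1339.8, 1155 and 470.4 at the 1-cell stage and 35.2, 4.1, 129.1 and 5.7 at the 2-cell stage. It read 2.9, 4, 2.2 and 3.8 at the 8-cell stage and 0.9, 1.2, 2.7 and 1.6 in blastocysts. The first 4 stages did not overlap with one another, and the 2-cell arrays were the most unequal, with 2 of 4 above 32.9. Mos averaged 1065 ± 404 at the 1-cell stage and 2884 ± 226 in oocytes (SD, n = 4 each), and fell by 1.53 ± 0.42 on the log2 scale (moderated SE, limma adjusted p = 0.00526). It averaged 43.5 ± 58.8 at the 2-cell stage and fell there by 4.74 ± 0.42 relative to the 1-cell stage (adjusted p = 2.12e-10). With 2 of the 4 arrays at the 2-cell stage under the filter level, that size depends on the pseudocount, and it was -5.38 with 3.04 and -3.68 with 48.6 in place of 12.15. The next step, a fall of 1.28 ± 0.42 at the 8-cell stage relative to the 2-cell stage (adjusted p = 0.0121), was smaller and depended on a single array. Without the 2-cell array that read 129.1 it was -0.64 (adjusted p = 0.0973), and with a pseudocount of 48.6 in place of 12.15 also -0.64 (0.0532). With a pseudocount of 3.04 it was -1.93 (0.0054), and in a fit of the compared stages alone it missed the threshold (0.0602). Between blastocysts and 8-cell embryos, at means of 1.6 ± 0.787 and 3.22 ± 0.834, the change was -0.16 with a 95% interval of -1.05 to 0.73 (adjusted p = 0.772). Blastocysts against oocytes differed by -7.72 ± 0.42 (adjusted p = 4.98e-15), and alternatives in scaling and pseudocount gave -9.29 to -5.87. The order of stages was oocyte, 1-cell, 2-cell and 8-cell, each above the next, with the 8-cell and blastocyst levels not separated.

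**Figure D1:**
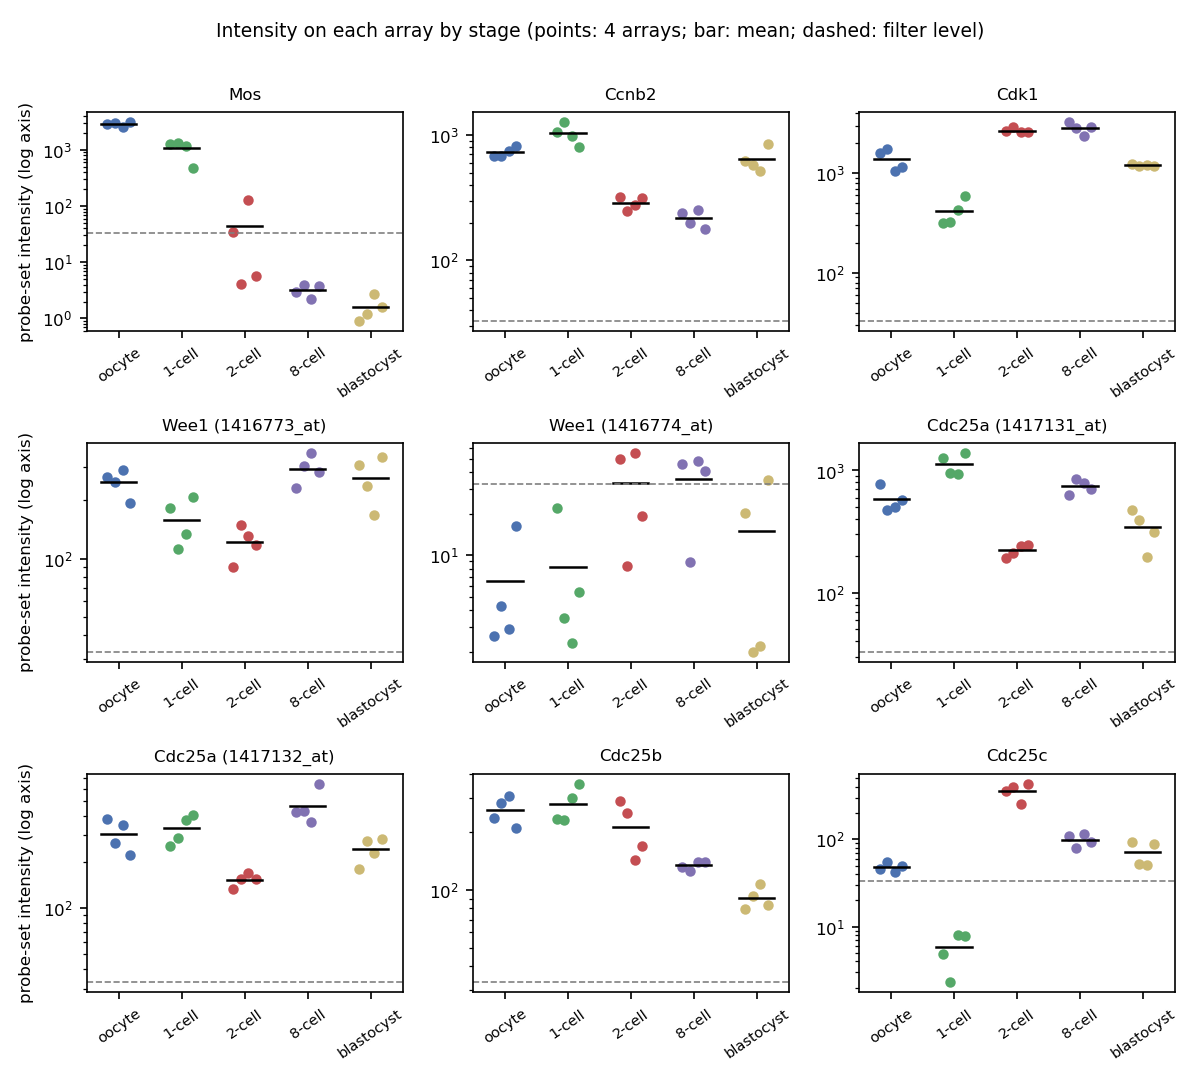
Probe-set intensity (log axis, arbitrary array units) of each of the 9 member probe sets on the 20 arrays, with stages from oocyte to blastocyst along the horizontal axis. Points are single arrays, bars are stage means of the linear values (n = 4) and the dashed line is the filter level of 32.9. Mos lies below that line on 2 of 4 arrays at the 2-cell stage and on all arrays of the later stages. Cdk1 and Cdc25c dip at the 1-cell stage, and Ccnb2 dips at the 2-cell and 8-cell stages.

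Ccnb2, which encodes cyclin B2, one of the cyclins that pair with Cdk1, was highest at the 1-cell stage and lowest at the 2-cell and 8-cell stages. Its arrays read 673, 684.5, 738.1 and 821.3 in oocytes, 1060.5, 1258.9, 987.1 and 797.3 at the 1-cell stage and 317.6, 245.9, 275.3 and 313.6 at the 2-cell stage. They read 236.8, 199.2, 251 and 178.7 at the 8-cell stage and 615.5, 577.7, 514.6 and 845.7 in blastocysts. All 8 arrays of the 2-cell and 8-cell stages lay below all 12 arrays of the other stages. At the 1-cell stage Ccnb2 averaged 1026 ± 191, against 729 ± 67.6 in oocytes, and rose by 0.47 ± 0.17 (adjusted p = 0.0371). That small rise did not hold: leaving out any of oocyte arrays 1 to 3 or 1-cell arrays 1 to 3 ended the call at changes of 0.37 to 0.48, centring on the array median gave 0.41 (0.101), a fit with no intensity trend gave an adjusted p of 0.0607, and scaling to the hybridization controls turned it to -0.53 (0.117). At the 2-cell stage it averaged 288 ± 34 and fell by 1.78 ± 0.17 relative to the 1-cell stage (adjusted p = 1.35e-09). The change at the 8-cell stage relative to the 2-cell stage was -0.4 ± 0.17 (adjusted p = 0.0579), at a mean of 216 ± 33.3, and was called without 2-cell array 2 (0.0432), without 8-cell array 3 (0.0411), under the stricter intensity filter (0.0486) and under scaling to the hybridization controls (-0.95, 0.00716). In blastocysts Ccnb2 rose by 1.5 ± 0.17 relative to the 8-cell stage (adjusted p = 7.94e-08), to 638 ± 144. Blastocysts and oocytes differed by -0.21, with a 95% interval of -0.58 to 0.16 (adjusted p = 0.308), and blastocysts lay 1.1 ± 0.17 above 2-cell embryos (adjusted p = 3.84e-06).

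Cdk1, the catalytic kinase of the complex, took nearly the opposite course, lowest at the 1-cell stage and highest at the 2-cell and 8-cell stages. Its arrays read 1589.5, 1767.4, 1043.1 and 1163.1 in oocytes, 314.2, 324, 424.7 and 589.5 at the 1-cell stage and 2643.2, 2909.3, 2595.9 and 2582.8 at the 2-cell stage. They read 3241.7, 2835.1, 2356.2 and 2926.1 at the 8-cell stage and 1240.5, 1171.4, 1207.6 and 1188.5 in blastocysts. The 1-cell arrays were below, and the 2-cell and 8-cell arrays above, every array of the remaining stages. Cdk1 averaged 413 ± 128 at the 1-cell stage and 1391 ± 344 in oocytes, and fell by 1.73 ± 0.18 (adjusted p = 1.92e-08). At the 2-cell stage it averaged 2683 ± 153 and rose by 2.71 ± 0.18 relative to the 1-cell stage (adjusted p = 1.04e-12), a 6.53-fold higher level on this scale. The 8-cell mean of 2840 ± 366 differed from the 2-cell mean by 0.074 on the log2 scale, with a 95% interval of -0.31 to 0.46 (adjusted p = 0.766), but quantile normalization turned this into a called -0.5 (0.0289). In blastocysts Cdk1 averaged 1202 ± 29.6 and fell by 1.22 ± 0.18 relative to the 8-cell stage (adjusted p = 4.51e-06). Scaling to the hybridization controls left -0.14 of that last change (adjusted p = 0.669). Blastocysts and oocytes differed by -0.18, with a 95% interval of -0.56 to 0.21 (adjusted p = 0.423), and 2-cell embryos lay 0.97 ± 0.18 above oocytes (adjusted p = 6.24e-05), or 0.18 (0.599) under scaling to the hybridization controls. Blastocysts lay 1.56 ± 0.18 above 1-cell embryos (adjusted p = 1.88e-08).

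**Figure D2:**
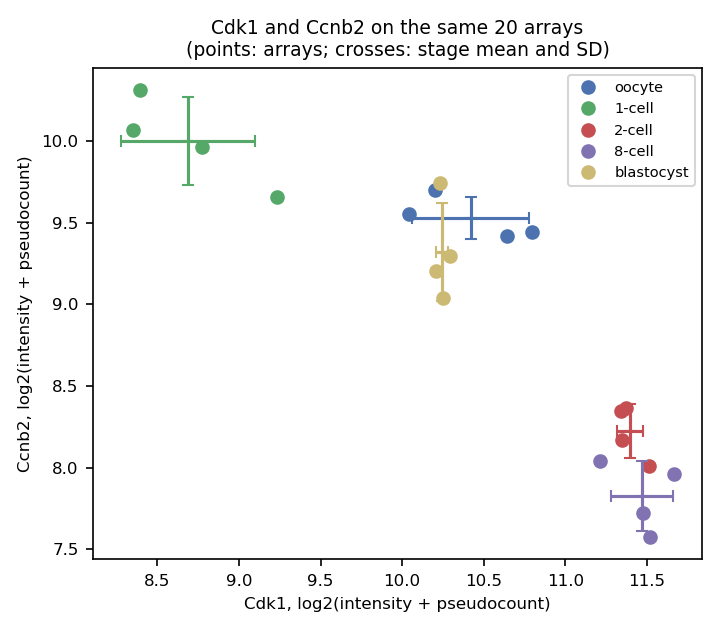
Ccnb2 against Cdk1 on the same 20 arrays, both as log2(intensity + 12.15). Points are arrays coloured by stage and crosses are stage means with SD (n = 4); the 1-cell arrays lie at low Cdk1 and high Ccnb2, the 2-cell and 8-cell arrays at high Cdk1 and low Ccnb2, and the oocyte and blastocyst arrays between them.

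The transcripts of the kinase and of its cyclin changed in opposite directions at the 1-cell to 2-cell step, where Cdk1 rose and Ccnb2 fell, and again at the 8-cell to blastocyst step, where Ccnb2 rose and Cdk1 fell. The first of these pairs of calls held in all alternatives run. In the second, the rise of Ccnb2 became 2.58 and the fall of Cdk1 was lost under scaling to the hybridization controls. The levels of the 2 probe sets cannot be set against each other, because probe sets differ in their response.

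Wee1, the kinase that inhibits Cdk1, was measured by 2 probe sets that disagreed in level and in course. The brighter probe set, 1416773_at, read 265.8, 248.4, 286.2 and 193.3 in oocytes, 183.7, 111.7, 134.5 and 207.4 at the 1-cell stage and 90.4, 149.4, 131.5 and 117.9 at the 2-cell stage. It read 232, 300.1, 352.4 and 281.8 at the 8-cell stage and 304.8, 239, 168.8 and 335.3 in blastocysts. Only the 8-cell and 2-cell arrays, among consecutive stages, did not overlap. Wee1 rose by 1.18 ± 0.22 at the 8-cell stage relative to the 2-cell stage (adjusted p = 4.79e-05), at means of 292 ± 49.7 and 122 ± 24.9, and scaling to the hybridization controls ended that call (0.63, adjusted p = 0.118). A fall of 0.63 ± 0.22 at the 1-cell stage relative to oocytes (adjusted p = 0.0281), at means of 159 ± 43.9 and 248 ± 39.9, was lost without any of oocyte arrays 1 to 3 or 1-cell arrays 2 and 3, and under quantile normalization (-0.51, 0.0679). Scaling to the hybridization controls gave -1.63 for it. The changes at 1-cell to 2-cell (-0.33, adjusted p = 0.231) and at 8-cell to blastocyst (-0.18, 0.525) were not called. Blastocysts, at 262 ± 74, and oocytes differed by 0.043, with a 95% interval of -0.42 to 0.51 (adjusted p = 0.877).

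The dimmer Wee1 probe set, 1416774_at, was above 32.9 on 6 of 20 arrays and gave no change on which its arrays were separated. Its means were 6.52 ± 6.56 in oocytes, 8.25 ± 9.12 in 1-cell embryos, 33.1 ± 22.8 in 2-cell embryos, 35.8 ± 18.2 in 8-cell embryos and 14.9 ± 16 in blastocysts (SD, n = 4 each). Of its consecutive changes, 1.08 ± 0.43 at the 2-cell stage relative to the 1-cell stage was called (adjusted p = 0.0421). The call was lost without 1-cell array 2, 3 or 4 or 2-cell array 1 or 3 and under quantile normalization, median centring and no filter, and the value was 0.49 with the larger and 1.69 with the smaller pseudocount. Neither probe set carried the other's calls at consecutive stages.

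Cdc25a, a phosphatase that activates cyclin-dependent kinases, was lowest at the 2-cell stage on both of its probe sets. The probe set 1417131_at read 779.8, 473.8, 506.7 and 573.9 in oocytes, 1274.6, 960.6, 930 and 1388.7 at the 1-cell stage and 193.8, 212, 240.7 and 243.4 at the 2-cell stage. It read 625.1, 850.4, 786.4 and 700.4 at the 8-cell stage and 470.7, 389.8, 195.7 and 315.7 in blastocysts. At each of the 4 consecutive steps the arrays of the 2 stages were fully separated. It rose by 0.95 ± 0.21 at the 1-cell stage relative to oocytes (adjusted p = 0.000793), a change that became -0.05 (0.887) under scaling to the hybridization controls. It fell by 2.28 ± 0.21 at the 2-cell stage (adjusted p = 5.53e-10), at means of 222 ± 23.8 against 1138 ± 228 at the 1-cell stage, and rose by 1.68 ± 0.21 at the 8-cell stage (adjusted p = 1.39e-07), at 741 ± 98.5. In blastocysts it fell by 1.14 ± 0.21 relative to the 8-cell stage (adjusted p = 8.08e-05), to 343 ± 117, and this became -0.059 (0.869) under scaling to the hybridization controls. Blastocysts lay below oocytes, which averaged 584 ± 137, by a change of -0.79 ± 0.21 (adjusted p = 0.00205). The order of the stages was 1-cell, then 8-cell and oocyte, which were not separated (adjusted p = 0.15), then blastocyst and 2-cell. Leaving out 8-cell array 1 or 1-cell array 4 ended the difference of the 8-cell from the 1-cell stage (-0.6, adjusted p = 0.0152). Leaving out blastocyst array 1 or 2 or 2-cell array 1 or 2 ended that of the blastocyst from the 2-cell stage (0.54, 0.0306).

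The second Cdc25a probe set, 1417132_at, shared 3 of the 4 consecutive calls. Its arrays read 380.3, 266.1, 349 and 220.8 in oocytes, 254.7, 284.9, 376.4 and 405.3 at the 1-cell stage and 132.6, 154.4, 169.1 and 153.9 at the 2-cell stage. They read 421.6, 430.6, 361.3 and 645.9 at the 8-cell stage and 179.7, 275.1, 227.8 and 281.8 in blastocysts. The 2-cell arrays were below all others, and the oocyte and 1-cell arrays overlapped. It fell by 1.04 ± 0.2 at the 2-cell stage relative to the 1-cell stage (adjusted p = 0.000118), rose by 1.51 ± 0.2 at the 8-cell stage (adjusted p = 5.33e-07) and fell by 0.9 ± 0.2 in blastocysts (adjusted p = 0.000851). Scaling to the hybridization controls turned the last of these to 0.18 (0.63). The 1-cell stage did not differ detectably from oocytes on this probe set (0.12, 95% interval -0.31 to 0.56, adjusted p = 0.714), where 1417131_at was higher. Blastocysts did not differ detectably from oocytes on it either (-0.31, 95% interval -0.75 to 0.13, adjusted p = 0.198), where 1417131_at was lower. The probe sets also placed the 8-cell and 1-cell stages in opposite order, and the 0.47 (adjusted p = 0.0495) by which 8-cell embryos exceeded 1-cell embryos on 1417132_at was lost in most alternatives, among them leaving out 1-cell array 1 or 2 or 8-cell array 1, 2 or 4.

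Cdc25b, the phosphatase known for its role in meiotic resumption, was lower in 8-cell embryos and lower again in blastocysts than at the earlier stages. Its arrays read 236.2, 284, 307.9 and 209.7 in oocytes, 233.7, 232.4, 303 and 357.6 at the 1-cell stage and 289.8, 251.2, 142.8 and 170 at the 2-cell stage. They read 131.2, 124.7, 139.7 and 140.3 at the 8-cell stage and 79.6, 92.8, 106.8 and 83.7 in blastocysts. The first 3 stages overlapped, whereas all blastocyst arrays lay below all 8-cell arrays and all 8-cell arrays below all earlier ones. Blastocysts, at 90.7 ± 12.1, were below oocytes, at 259 ± 44.6, with a fall of 1.39 ± 0.2 (adjusted p = 9.42e-07). The steps into that fall were small. The change at the 8-cell stage relative to the 2-cell stage was -0.58 ± 0.2 (adjusted p = 0.0193) and was lost without 2-cell array 1 (-0.42, 0.101) or 2 (-0.48, 0.0735). The change in blastocysts relative to the 8-cell stage was -0.51 ± 0.2 (adjusted p = 0.0404) and was lost without any 8-cell array or without blastocyst array 1, 2 or 4. Centring on the array median made it -0.29 (0.302) and scaling to the hybridization controls 0.57 (0.14). The 1-cell stage differed from oocytes by 0.11 (adjusted p = 0.75) and the 2-cell from the 1-cell stage by -0.41 (0.103), which was called without 2-cell array 1 (0.0255), under quantile normalization (0.04) and under median centring (0.0494). The 2-cell stage and oocytes, neighbours in the order of levels, differed by -0.3 (0.238), or by a called -1.1 (0.00459) under scaling to the hybridization controls.

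Cdc25c, the third phosphatase of the family and an activator of Cdk1 at mitotic entry, was below the filter level at the 1-cell stage and highest at the 2-cell stage. Its arrays read 45.3, 54.2, 42.2 and 49.5 in oocytes, 4.9, 2.3, 8.1 and 7.9 at the 1-cell stage and 352.8, 395.5, 255.7 and 431.2 at the 2-cell stage. They read 109.8, 80.1, 114.5 and 92.4 at the 8-cell stage and 93.6, 51.6, 50.3 and 87.5 in blastocysts. All 4 of the 1-cell arrays were below 32.9, all other arrays were above it, and the 2-cell arrays were above all others. Cdc25c fell by 1.75 ± 0.22 at the 1-cell stage relative to oocytes (adjusted p = 4.66e-07), at means of 5.8 ± 2.75 and 47.8 ± 5.21. It rose by 4.36 ± 0.22 at the 2-cell stage relative to the 1-cell stage (adjusted p = 2.72e-15), at a mean of 359 ± 75.8. Since the 1-cell level was low, both sizes depend on the pseudocount, and with 48.6 they were -0.83 and 2.89, both still called. Over the alternatives other than leaving out an array, the rise at the 2-cell stage was 2.89 to 5.39. Cdk1 and Cdc25c were both lowest on the 1-cell arrays, which carried the 18S signal of 12665 on average, and the part of that signal was not tested. Cdc25c fell by 1.72 ± 0.22 at the 8-cell stage relative to the 2-cell stage (adjusted p = 2.03e-07), at 99.2 ± 15.9. Blastocysts, at 70.8 ± 23, differed from 8-cell embryos by -0.46 (adjusted p = 0.0921) and from oocytes by 0.43 (0.0973), and neither was called. The first passed without blastocyst array 1 (0.0498). The second passed without blastocyst array 3 (0.55, adjusted p = 0.0476) and under median centring (0.5, 0.0471).

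Counted over probe sets, the members changed in both directions at each consecutive step. At the 1-cell stage relative to oocytes, 2 of 9 rose and 4 fell, where 16% of all tested probe sets rose and 15.3% fell, and the arrays of 4 of 9 did not overlap between the stages, against 31.3% of all. At the 2-cell relative to the 1-cell stage, 3 rose and 4 fell, against 23.2% and 21.5% of all, with 6 not overlapping, against 41%. At the 8-cell relative to the 2-cell stage, 3 rose and 3 fell, against 23.2% and 25.2%, with 6 not overlapping, against 42.7%. In blastocysts relative to the 8-cell stage, 1 rose and 4 fell, against 19.5% and 25.5%, with 5 not overlapping, against 37.3%. In blastocysts relative to oocytes, 0 rose and 3 fell, against 28.5% and 30.7% of all, with 3 not overlapping, against 54.6%. The median change of the 9 was 0.094, -0.41, 0.074, -0.51 and -0.21 in these 5 comparisons, beside 0.11, -0.039, 0.055, -0.21 and -0.12 over all tested probe sets. Mos, Cdc25b and Cdc25a (1417131_at) made up the 3 member probe sets called below their oocyte level in blastocysts. The second Cdc25a probe set, 1417132_at, was not called there.

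For neighbours in a member's order of stages that are not consecutive in time, the calls stand beside high background rates. Between 2-cell embryos and oocytes 44.9% of all tested probe sets differed, between 8-cell embryos and oocytes 60%, between 8-cell and 1-cell embryos 60.5%, between blastocysts and 1-cell embryos 65.8% and between blastocysts and 2-cell embryos 57.7%. Scaling changed the split of calls by direction. Of all called probe sets at oocyte to 1-cell, 51.1% were higher on the authors' scale and 0.299% under scaling to the hybridization controls, and the members' counts there became 0 higher and 6 lower. The same scaling changed the share higher to 67% (main 51.9%) at 1-cell to 2-cell, to 19% (48%) at 2-cell to 8-cell, to 97% (43.4%) at 8-cell to blastocyst and to 37.8% (48.1%) at oocyte to blastocyst. Centring on the array median gave 63% at 8-cell to blastocyst.

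**Figure D3:**
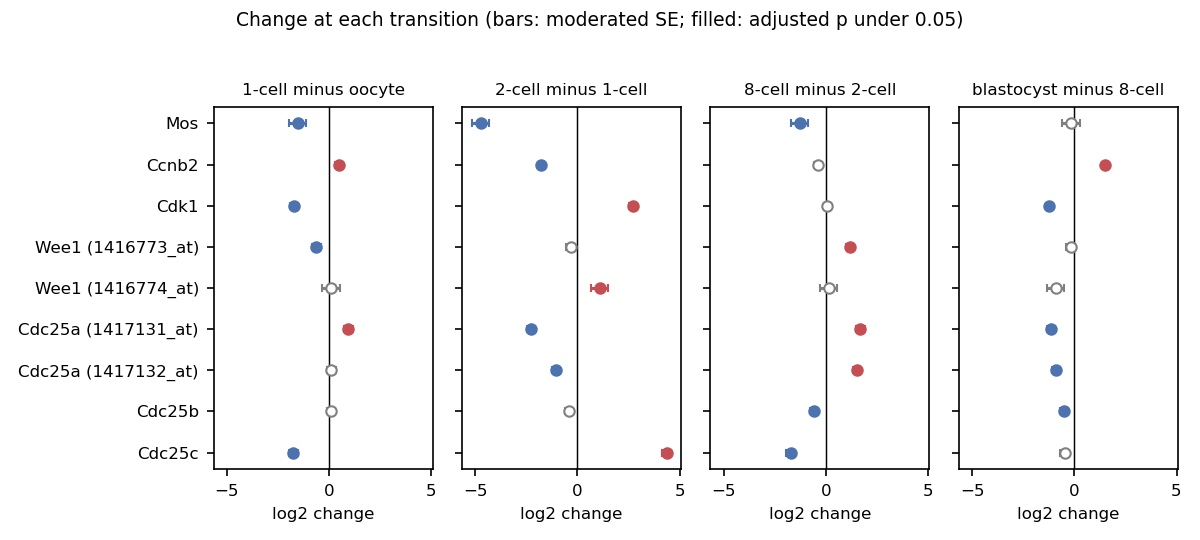
Log2 change of each member probe set (rows) at the 4 consecutive transitions (panels), later stage minus earlier stage. Horizontal bars are moderated SEs, many of them narrower than the symbol, and filled symbols mark an adjusted p under 0.05; the 2-cell minus 1-cell panel holds the widest spread, from -4.74 for Mos to 4.36 for Cdc25c.

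Genes of 4 surrounding steps were counted in the same fit, with 1 probe set per gene. Their counts higher and lower stand beside the background of all tested probe sets, which was 16% and 15.3% at the 1-cell stage, 23.2% and 21.5% at the 2-cell stage, 23.2% and 25.2% at the 8-cell stage and 19.5% and 25.5% in blastocysts. That background counts every tested probe set, not the brightest of each gene, so the shares are not like for like. In the MAPK arm through which Mos acts, 4 of 9 listed genes were tested. Fbxo43, an inhibitor of cyclin B destruction in the arrested egg, did not pass the intensity filter. Of these 4, 1 rose and 2 fell at the 1-cell stage relative to oocytes, 1 rose and 3 fell at the 2-cell stage, 1 rose and 3 fell at the 8-cell stage, and 1 rose and 2 fell in blastocysts. Cpeb1, which encodes an RNA-binding protein that controls translation of stored transcripts in the oocyte, fell by 2.92 ± 0.16 at the 2-cell stage relative to the 1-cell stage (adjusted p = 1.12e-14), at 88 ± 6.08 against 749 ± 63.5. Map2k1, which encodes a MAPK kinase, averaged 938 ± 200 in 2-cell embryos, against 2980 ± 441 in 1-cell embryos, and fell by 1.67 ± 0.17 (adjusted p = 2.7e-09). It had been higher at the 1-cell stage than in oocytes by 0.99 ± 0.17, which became -0.01 under scaling to the hybridization controls. Map2k2, its paralog, did the reverse, with a fall of 1.68 ± 0.24 at the 1-cell stage relative to oocytes and a rise of 1.54 ± 0.24 at the 2-cell stage (adjusted p = 3.57e-06 and 4.83e-06). Map2k2 averaged 16.6 ± 6.91 at the 1-cell stage, below the filter level, so both sizes depend on the pseudocount. The median change of the 4 genes was -1.26 in 2-cell embryos and -1.07 in 8-cell embryos, beside -0.039 and 0.055 over all tested probe sets.

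Among other regulators and partners of Cdk1, 23 of 27 listed genes were tested. Of these, 9 rose and 5 fell at the 1-cell stage, 7 and 9 at the 2-cell stage, 6 and 8 at the 8-cell stage and 4 and 6 in blastocysts, each relative to the stage before it and beside the background shares above. Cdk7 and Ccnh, the kinase and the cyclin of the complex that phosphorylates Cdk1 on its activating site, both fell at the 1-cell stage, the step at which Cdk1 also fell. Cdk7 fell by 2.42 ± 0.2 and Ccnh fell by 2.63 ± 0.22 (adjusted p = 1.81e-10 and 3.17e-10). Ccna2, the gene of cyclin A2, rose there by 1.3 ± 0.15 and fell in blastocysts by 1.41 ± 0.15, and scaling to the hybridization controls ended both calls (0.3 and -0.33). Ppp2cb, a catalytic subunit gene of the phosphatase that opposes Cdk1, rose by 5.62 ± 0.2 at the 2-cell stage (adjusted p = 1.61e-18). It averaged 878 ± 122 there, against 5.98 ± 3.44 at the 1-cell stage, below the filter level, so that size depends on the pseudocount. Of the other subunit genes tested, Ppp2r1a fell by 2.11 ± 0.15 at that step (adjusted p = 2.45e-12), at 457 ± 72.4 against 2014 ± 214. Ppp2ca and Ppp2r2a rose by 0.38 ± 0.15 and 0.48 ± 0.15 (adjusted p = 0.0378 and 0.00854). Ppp2r1b (-0.28) and Ppp2r2d (-0.26) were not called. Of the checkpoint kinase genes whose products restrain the Cdc25 phosphatases, Chek1 fell at the 2-cell stage by 1.73 ± 0.16 (adjusted p = 4.66e-10) and Chek2 rose by 2.63 ± 0.18 (adjusted p = 1.45e-12). Mastl, the kinase that restrains the phosphatase opposing Cdk1 in M phase, changed by -1.73 ± 0.23 at the 2-cell stage. It changed by -1.66 ± 0.23 at the 8-cell stage, and by -3.37 ± 0.23 in blastocysts relative to oocytes. Arpp19, which encodes a substrate of Mastl, rose by 2.61 ± 0.19 at the 8-cell stage relative to the 2-cell stage (adjusted p = 5.95e-12). Pkmyt1, the other inhibitory kinase of Cdk1 measured here, fell by 1 ± 0.27 at that step (adjusted p = 0.0026), at 130 ± 52 against 279 ± 121, while Wee1 rose on its brighter probe set. Cks2, a small subunit partner of Cdk1, averaged 7436 ± 792 at the 1-cell stage and 4116 ± 639 in oocytes, and quantile normalization (0.34) and the scaling to hybridization controls (-0.15) each ended its call of 0.86. The egg-specific kinase gene Wee2 was not analysed here.

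In the machinery that destroys cyclin B, 17 of 19 listed genes were tested, with 2 higher and 7 lower at the 1-cell stage, 7 and 3 at the 2-cell stage, 4 and 4 at the 8-cell stage and 5 and 6 in blastocysts, beside the same background shares. Cdc20, the activator of the anaphase-promoting complex in mitosis and at egg activation, rose by 1.1 ± 0.15 at the 1-cell stage (adjusted p = 1.09e-06), at 2791 ± 443 against 1282 ± 105 in oocytes, or by 0.1 under scaling to the hybridization controls. Fzr1, its counterpart outside M phase, fell by 0.79 ± 0.2 at the same step (adjusted p = 0.00334). The complex subunit genes Anapc7 and Cdc23, among the 7 that rose at the 2-cell stage, did so by 1.72 ± 0.2 and 2.76 ± 0.21 (adjusted p = 4.34e-08 and 1.87e-11). Cdc23 averaged 16.7 ± 3.88 at the 1-cell stage, below the filter level, so the size of its rise depends on the pseudocount. Anapc7 had changed by -1.97 ± 0.2 at the 1-cell stage relative to oocytes. The 3 listed genes that fell at the 2-cell stage were Ube2s, Anapc4 and Cdc26. Their changes were -1.26 ± 0.3, -1.21 ± 0.17 and -0.64 ± 0.21 (adjusted p = 0.00108, 6.28e-07 and 0.0144). Of 13 tested genes of 17 listed for cyclic AMP and calcium control of the arrest, 6 rose and 2 fell in 1-cell embryos, 2 and 3 in 2-cell embryos, 1 and 5 in 8-cell embryos and 1 and 4 in blastocysts. Prkar2a and Pde3a, among the 6 that rose at the 1-cell stage, did so by 1.48 ± 0.29 and 1.32 ± 0.32 (adjusted p = 0.000182 and 0.00182). In oocytes they averaged 10.8 ± 5.72 and 19.6 ± 12.4, below the filter level, so both sizes depend on the pseudocount. Scaling to the hybridization controls ended both calls (0.48 and 0.32). Camk2g, the calcium-dependent kinase that releases the mouse egg from arrest, was among the 2 that fell there, by 1.64 ± 0.23 (adjusted p = 2.51e-06). It rose by 1.37 ± 0.23 at the 2-cell stage and fell by 2.76 ± 0.23 at the 8-cell stage (adjusted p = 1.39e-05 and 7.74e-11). The medians of the regulator list, the destruction list and the signalling list at the 2-cell stage were -0.26, 0.34 and -0.38, beside -0.039 over all tested probe sets.

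**Figure D4:**
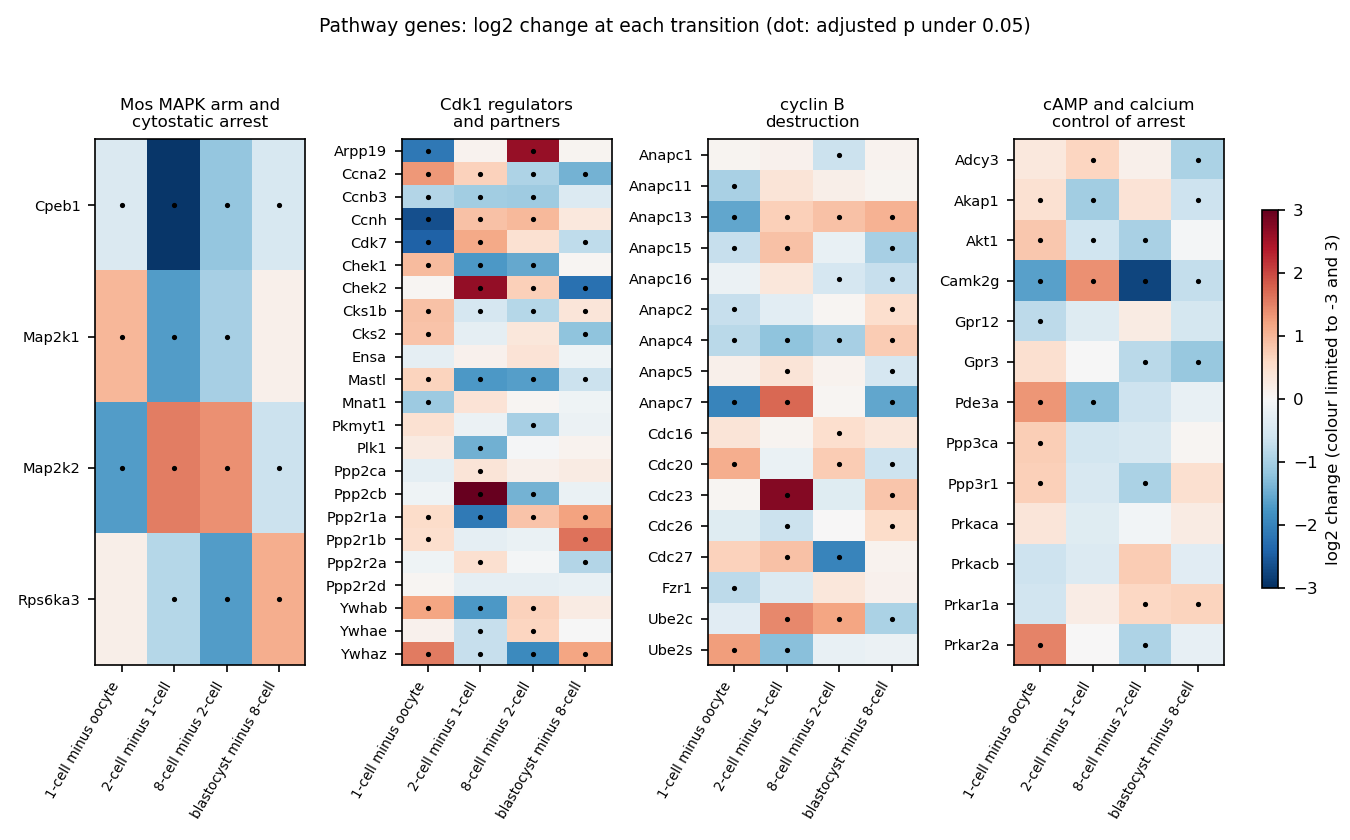
Log2 change of the tested genes of the 4 surrounding lists at each consecutive transition (columns, later minus earlier stage), with colour limited to -3 and 3 and a dot where the adjusted p was under 0.05. Cpeb1 is darkest blue and Ppp2cb and Cdc23 darkest red in the 2-cell minus 1-cell column, and Cdk7 and Ccnh are dark blue in the 1-cell minus oocyte column.

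The genes whose course over the 20 arrays was most like that of each member are given as a description, since the arrays share 5 stages and their scaling. For Mos these were Gdpd1 (Pearson r 0.985), Dnmt1 (0.98) and Pde6b (0.976). For Ccnb2 they were Emp2 (0.966), Rsrc1 (0.953) and Rpa1 (0.946), and for Cdk1 they were Polr1e (0.95), Jpt1 (0.95) and Znrd1 (0.948). For Wee1, on its brighter probe set, the values were lower, with Zfp110 (0.879), Hnrnpk (0.863) and Mrpl11 (0.849). For Cdc25a, on 1417131_at, they were Scamp2 (0.903), Xrn2 (0.873) and Smarca5 (0.871), for Cdc25b they were Zbtb46 (0.939), Rras2 (0.936) and Glis1 (0.934), and for Cdc25c they were Ubap1 (0.962), Trub2 (0.961) and Arid4b (0.958). No member was among the 3 most alike genes of another member.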

How the data were processed

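Intensities of 22690 probe sets on 20 MOE430A arrays (5 stages, 4 each) were used as the authors deposited them, on a linear intensity scale. Total RNA was amplified by 2 rounds of in vitro transcription, per the labels; on the values, every array has a mean of 150.05 to 150.08 when 2% is trimmed at each end. How the intensities were summarised and background-corrected is not given in the sources used. Without detection calls, precision is limited by the number of arrays and, for dim probe sets, by background.

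Stages were taken from the sample titles. The 64 controls were left out; of the others 20380 carried 1 gene symbol, 691 several and 1555 none in the platform annotation, and none was named from a probe set with several. Values were taken as log2(intensity + 12.15), where the constant is the pooled median of 48.6 divided by 4, and the 17208 probe sets that exceeded 32.9, the 40th percentile of all values, on 4 or more arrays were tested. limma 3.58.1, run in R 4.3.3, fitted all stages in a single model (lmFit, eBayes with intensity trend, 15 residual degrees of freedom, two-sided, Benjamini-Hochberg per comparison, threshold 0.05). Errors of log2 changes are moderated SEs and those of intensities SDs.

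All member probe sets are named; of the pathway lists, up to 2 risen and 2 fallen genes per transition with no overlap, a fixed set, and for each member the 3 most alike genes by Pearson r. Some are left out for length. A pathway gene stands for its tested probe set of highest mean log2 value. Members and lists were chosen with earlier results of these data known. Alternatives were quantile normalization, median centring, scaling to the hybridization controls, pseudocounts of 3.04 and 48.6, no filter, a 60th percentile filter (71.8), a fit of the compared stages alone, no intensity trend, a replicate block and leaving out each array. Same-numbered arrays did not deviate together (1 of 20 correlations over 0.1), so the numbers were not taken as pairs. Figures were drawn with matplotlib 3.10.9.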

Additional observations from a re-analysis of the deposited data

Results flagged for a closer look

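Of 45 groups of 4 arrays (9 probe sets at 5 stages), 3 held an array set far apart from the other 3 on the log2 scale by Dixon's test at its 95% critical value. Chance flags about 1 in 20 such groups. The Mos value of 1-cell array 4 was 470.4, where the other arrays read 1155 to 1339.8. Without that array the change of Mos at the 1-cell stage relative to oocytes was -1.18 and was still called (adjusted p = 0.0325). The other 2 were on the dim Wee1 probe set 1416774_at, oocyte array 4 at 16.3 (others 2.6 to 4.3) and 8-cell array 2 at 8.9 (others 40.9 to 47.7). Without that 8-cell array, the change of Wee1 on this probe set in blastocysts relative to the 8-cell stage was -1.27 and called (adjusted p = 0.0217), against -0.91, not called, with it.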

How the results depend on the processing

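Precision is limited by 4 arrays per stage and, for Mos from the 2-cell stage on and for the dim Wee1 probe set, by intensities near the array background. There the size of a change depends on the pseudocount. Of the tests of member changes under settings other than leaving out an array, 503 kept direction and call, 23 lost the call, 8 gained it and 19 reversed in sign. When each array was left out in turn, 391 were kept, 37 lost the call, 9 gained it and 11 reversed. The cause of each change of sign or call was not tested.

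Some counts of called members moved by over 1.5 times. At oocyte to 1-cell, the count higher was 1 under median centring, 0 under scaling to the hybridization controls and 1 with no intensity trend, against 2. At oocyte to blastocyst it was 1 under median centring, against 0. At 8-cell to blastocyst, scaling to the hybridization controls gave 3 higher and 0 lower, against 1 and 4. Among these 3 was Mos, which lay below the filter level on all arrays of both stages. Smaller moves included 2 higher and 5 lower at 1-cell to 2-cell under quantile normalization and under median centring, against 3 and 4. Quantile normalization gave 3 lower at oocyte to 1-cell, against 4, and 4 lower at 2-cell to 8-cell, against 3. Scaling to the hybridization controls gave 6 lower at oocyte to 1-cell, against 4, and 2 higher and 4 lower at 2-cell to 8-cell, against 3 and 3. Median centring gave 3 lower at 8-cell to blastocyst, against 4. Leaving out an array gave 1 to 2 higher and 3 to 4 lower at oocyte to 1-cell, 2 to 3 higher and 4 to 5 lower at 1-cell to 2-cell, 3 higher and 2 to 4 lower at 2-cell to 8-cell, 1 higher and 3 to 4 lower at 8-cell to blastocyst, and 0 to 1 higher and 3 lower at oocyte to blastocyst. Over all probe sets, scaling to the hybridization controls called 9713 at oocyte to 1-cell, against 5399.

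The replicate block left the counts of called members as they were, for example 2 higher at oocyte to 1-cell. It ended the call of Cdc25b at 8-cell to blastocyst (adjusted p = 0.0524) and that of Cdc25a 1417132_at between the 8-cell and 1-cell stages (0.0532), gained that of Wee1 1416774_at at 8-cell to blastocyst (0.0494), and changed no other member call. Same-numbered arrays had deviations correlated at -0.16 to 0.104.

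Scaling to the hybridization controls moves every probe set alike at a step, so the size of a change decided whether its sign reversed. This scaling reversed the most signs. At oocyte to 1-cell it gave -0.91 for Wee1 1416774_at, -0.05 and -0.88 for the Cdc25a probe sets 1417131_at and 1417132_at, -0.9 for Cdc25b and -0.53 for Ccnb2. At 2-cell to 8-cell it gave -0.42 for Wee1 1416774_at and -0.48 for Cdk1. At 8-cell to blastocyst it gave 0.91 and 0.17 for the Wee1 probe sets 1416773_at and 1416774_at, 0.18 for Cdc25a 1417132_at, 0.57 for Cdc25b, 0.62 for Cdc25c and 0.92 for Mos. Mos lay below the filter level on all arrays of both stages. The scaling was applied after the pseudocount was added and moved the median change of all probe sets by 1.08. The called 0.92 of Mos (adjusted p = 0.0305) is therefore not a measured rise. Scaling to the hybridization controls also gave -0.22 for Wee1 1416773_at at oocyte to blastocyst and -0.99 for Cdc25a 1417131_at in 8-cell embryos against oocytes. Of pathway genes it reversed Map2k1 (-0.01), Cks2 (-0.15) and Mastl (-0.35) at oocyte to 1-cell, and Map2k2 (0.43), Cpeb1 (0.61), Adcy3 (0.12), Mastl (0.44), Anapc15 (0.094) and Cdc20 (0.45) at 8-cell to blastocyst. Quantile normalization reversed Wee1 1416774_at at oocyte to 1-cell (-0.0078) and Cdk1 at 2-cell to 8-cell (-0.5). Median centring reversed Wee1 1416773_at (0.048) and Mos (0.064) at 8-cell to blastocyst.

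Leaving out an array reversed only changes that were not called: Wee1 1416774_at at oocyte to 1-cell (-0.18 to 0.32), at 2-cell to 8-cell (-0.19 to 0.49) and in blastocysts against 1-cell embryos (-0.033 to 0.58), Wee1 1416773_at at 8-cell to blastocyst (-0.31 to 0.0085) and at oocyte to blastocyst (-0.085 to 0.23), Cdc25a 1417132_at at oocyte to 1-cell (-0.016 to 0.24) and Cdc25b at oocyte to 1-cell (-0.012 to 0.19).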

Other observations

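Across the whole interval from oocyte to blastocyst, the list of other Cdk1 regulators and partners had 6 of 23 genes higher and 10 lower in blastocysts, the cyclin B destruction list 5 of 17 higher and 6 lower, the cyclic AMP and calcium list 1 of 13 higher and 6 lower, and the MAPK arm 1 of 4 higher and 3 lower, where 28.5% of all tested probe sets were higher and 30.7% lower. The median changes were -0.28, -0.33, -0.62 and -1.4, beside -0.12 over all tested probe sets. Cdc20, the mitotic activator of the anaphase-promoting complex, averaged 2670 ± 350 in blastocysts and 1282 ± 105 in oocytes and rose by 1.05 ± 0.15 (SD and SE, limma adjusted p = 5.72e-07). Its counterpart Fzr1 averaged 77.5 ± 18.3 in blastocysts and 138 ± 18.4 in oocytes and fell by 0.76 ± 0.2 (adjusted p = 0.002). Pkmyt1, an inhibitory kinase of Cdk1, fell by 0.89 ± 0.27 (adjusted p = 0.00512), where Wee1 on its brighter probe set had a change of 0.043 (0.877). Cks2 had a change of -0.28 ± 0.18 that was not called (adjusted p = 0.187).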
